A study of Mus musculus with 4 samples.

Results

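Joins formed by broken ends of Sμ (the switch region that precedes the IgM constant gene) were compared between B cells labelled XRCC4_KO and B cells labelled Wildtype. Members were taken by library title, and they were 2 of the 4 libraries of the series, holding 3521 junctions (XRCC4_KO) and 9435 junctions (Wildtype) of 18731 in all. The XRCC4_KO cells carry CD21Cre, 1 null and 1 conditional XRCC4 allele (C/-) and 1 null CtIP allele (+/-). The Wildtype cells carry CD21Cre with 1 conditional and 1 wild-type allele of both CtIP and XRCC4 (+/C each). After Cre deletion both libraries may therefore hold 1 working copy of CtIP, the end resection factor, and Wildtype may hold 1 working copy of XRCC4. CtIP_AA cells (CtIP T855A/T855A, with no Cre named) gave 3220 junctions and CtIP_KO cells (CD21Cre, CtIP C/- and XRCC4 +/C) gave 2555, and their values are set beside the main pair for some of the results. Splenic CD43- B cells from mice with preassembled IgH and IgK loci were grown for 4 days in medium with 1 ng/ml of an antibody to CD40 and 20 ng/ml of IL-4. Each genotype is 1 library, and whether animals were pooled is not stated. The strain label is BL6 and the growth protocol gives 129Sv, so the background was not settled. Cre driven by CD21 acts in mature B cells, and XRCC4 deletion in the library labelled XRCC4_KO was not measured here.

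In class switch recombination the deaminase AID triggers breaks in Sμ and in a downstream switch region, and the ends are ligated with loss of the DNA between them. Stimulation with anti-CD40 and IL-4 directs switching to Sγ1 and Sε, which lie upstream of the IgG1 and IgE constant genes. XRCC4 is the obligate partner of DNA ligase IV, which seals most such ends directly in classical non-homologous end joining. In cells that lack it, alternative end joining operates, often at short stretches of sequence that both ends share, called microhomology.

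Reads began at a nested primer in Sμ (the bait) and ran across the join into the partner end (the prey). Microhomology was scored as bases that both the bait and the prey alignment cover, a blunt join has neither overlap nor added bases, and an insertion has bases between the alignments. The reads below come from the XRCC4_KO library, with coordinates in mm9. The first line is the bait, chr12:114664810-114664909 on the minus strand, the majority base of 629 reads with at least 96% of reads in accord at each base, and its capitals mark the 21 bases of the nested primer. The next 3 lines are Sε joins that show the range of structures, with 25 bases of bait before the overlap and 25 bases of prey after it, and capitals on the overlap. Their prey ends are chr12:114515198-114515232 (10 bp overlap, the longest scored in Sε), chr12:114514058-114514086 (4 bp, the most frequent overlap of 3 or more bp in Sε) and chr12:114515215-114515239 (blunt, with capitals on the 25 prey bases), each on the minus strand. The blunt read runs over the same prey bases and has a single C where the 10 bp overlap has CC. That overlap is therefore 10 bp as aligned, and an unbroken match of bait and prey over it was not shown. Its lower prey coordinate counts read bases without a gap.
Sμ bait: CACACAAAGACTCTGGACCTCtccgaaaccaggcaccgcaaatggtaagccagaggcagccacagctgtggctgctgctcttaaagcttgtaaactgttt
Sε, 10 bp overlap: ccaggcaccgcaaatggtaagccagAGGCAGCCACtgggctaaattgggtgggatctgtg
Sε, 4 bp overlap: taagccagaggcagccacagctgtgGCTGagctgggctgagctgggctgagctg
Sε, blunt: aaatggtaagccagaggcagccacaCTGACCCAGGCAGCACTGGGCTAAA

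Junctions fell in Sμ (1124 in XRCC4_KO and 2328 in Wildtype), Sγ1 (1590 and 4038), Sε (462 and 2626), the rest of IgH (69 and 78) and outside IgH (276 and 365). Of all junctions, the share in XRCC4_KO was higher in Sμ (31.9%, against 24.7% in Wildtype), Sγ1 (45.2%, 42.8%), the rest of IgH (1.96%, 0.827%) and outside IgH (7.84%, 3.87%) and lower in Sε (13.1%, 27.8%), and all 5 differences passed the exact test described below. These shares add up to the whole, so a lower share in Sε raises the others, and the 5 are not separate results. In CtIP_AA 137 of 3220 junctions lay outside IgH and 48 in the rest of IgH, and in CtIP_KO 158 and 25 of 2555. Set against Sμ, Sγ1 held relatively fewer junctions in XRCC4_KO (1590 to 1124) than in Wildtype (4038 to 2328), which was not tested. In the tables that give reads, some reads carried bases before the nested primer: 27.1% of XRCC4_KO Sε reads, 110 of its 439 blunt joins (25.1%) and 8.21% of its junctions outside IgH, against 626 of 2090 blunt joins and 36.2% of junctions outside IgH in Wildtype. These tables name 1 sequencing run. Of the 439 blunt joins of XRCC4_KO, 24 (5.47%) had the same bait end, prey end and strand as a Wildtype join, as did 2 of 268 listed junctions outside IgH and 1 of 69 in the rest of IgH. The part of these tags and shared joins in the results was tested only by the alternatives that leave them out. Prey positions repeated more often in the deeper library: 75.6% of deletional Sγ1 junctions were at distinct positions in XRCC4_KO and 60.0% in Wildtype, and in Sε 91.7% and 60.6%. Intervals and p-values below cover counting error only, since PCR reads without molecular identifiers are not independent molecules, and each two-sided Fisher's exact test compares these 2 libraries, not 2 genotypes. P-values were adjusted within each kind of result by the Benjamini-Hochberg method, with 0.05 as the threshold.

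Joins with microhomology took a larger share of the XRCC4_KO library in every region and orientation, and the difference passed the test in each except inversional Sε. In the deletional orientation of Sγ1 (the minus strand, which most Sγ1 and Sε junctions of both libraries take), 983 of 1420 XRCC4_KO joins had microhomology (69.2%, 95% Wilson interval 66.8 to 71.6), against 1896 of 3706 in Wildtype (51.2%, 49.6 to 52.8). The odds ratio, XRCC4_KO over Wildtype as throughout, was 2.15 (95% interval 1.88 to 2.45, exact adjusted p = 1.13e-30). Blunt joins made up 13.4% in XRCC4_KO and 23.0% in Wildtype there (odds ratio 0.516, exact adjusted p = 2.20e-14). Insertions stood in 17.4% and 25.8% of those joins (odds ratio 0.606, exact adjusted p = 6.30e-10). Of the 24 combinations of region, orientation and join class, 17 passed the test (70.8%), 7 higher and 10 lower in XRCC4_KO. Blunt, microhomology and insertion shares add up to the whole in each region and orientation, so these are not separate results.

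Sγ1 joins in the inversional orientation (the plus strand) had the highest microhomology share of any switch region in XRCC4_KO. Microhomology stood in 132 of 170 such joins (77.6%, 70.8 to 83.3) in XRCC4_KO, against 169 of 332 (50.9%, 45.5 to 56.2) in Wildtype, with the odds ratio at 3.34 (2.16 to 5.24) and an exact adjusted p of 2.25e-08. Blunt and insertion joins were each at 11.2% there in XRCC4_KO, against 22.3% and 26.8% in Wildtype. The odds ratios of microhomology on the Sγ1 strands, 3.32 inversional and 2.15 deletional, did not differ past the threshold in a test of the difference itself (Woolf's chi-square test on the counts, adjusted p = 0.114).

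In Sμ, where both ends lie in the same switch region, deletional joins with microhomology made up 64.2% in XRCC4_KO and 44.8% in Wildtype (odds ratio 2.21, exact adjusted p = 2.07e-19). Deletional in Sμ stands for every join on the minus strand, including those with the prey upstream of the primer. Inversional Sμ joins with microhomology made up 63.7% in XRCC4_KO and 51.3% in Wildtype (odds ratio 1.67, exact adjusted p = 0.00143). Blunt joins there were 8.81% in XRCC4_KO and 15.4% in Wildtype (odds ratio 0.533, exact adjusted p = 0.0130), and insertions, at 27.5% and 33.3%, did not pass the test (exact adjusted p = 0.108).

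Sε had the odds ratio of microhomology nearest to 1 among deletional joins, although the ratios of Sμ, Sγ1 and Sε did not differ past the threshold (Woolf's chi-square test on the counts, adjusted p = 0.0701). Deletional Sε joins with microhomology were 257 of 436 (58.9%) in XRCC4_KO and 1214 of 2487 (48.8%) in Wildtype, with the odds ratio at 1.51 (1.22 to 1.86) and an exact adjusted p of 2.58e-04. Their blunt share, 20.9% in XRCC4_KO and 25.5% in Wildtype, did not pass the test (odds ratio 0.771, interval 0.595 to 0.992, exact adjusted p = 0.0546). When XRCC4_KO Sε reads with bases before the primer were left out, an alternative added after the data were seen, microhomology stayed higher (58.5% of 301, exact adjusted p = 0.0146), and the insertion difference (20.2% in XRCC4_KO and 25.7% in Wildtype, odds ratio 0.731, exact adjusted p = 0.0221) lost its call (odds ratio 0.828). The 26 inversional Sε joins of XRCC4_KO and the 139 of Wildtype gave no call in any class.

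**Figure D1:**
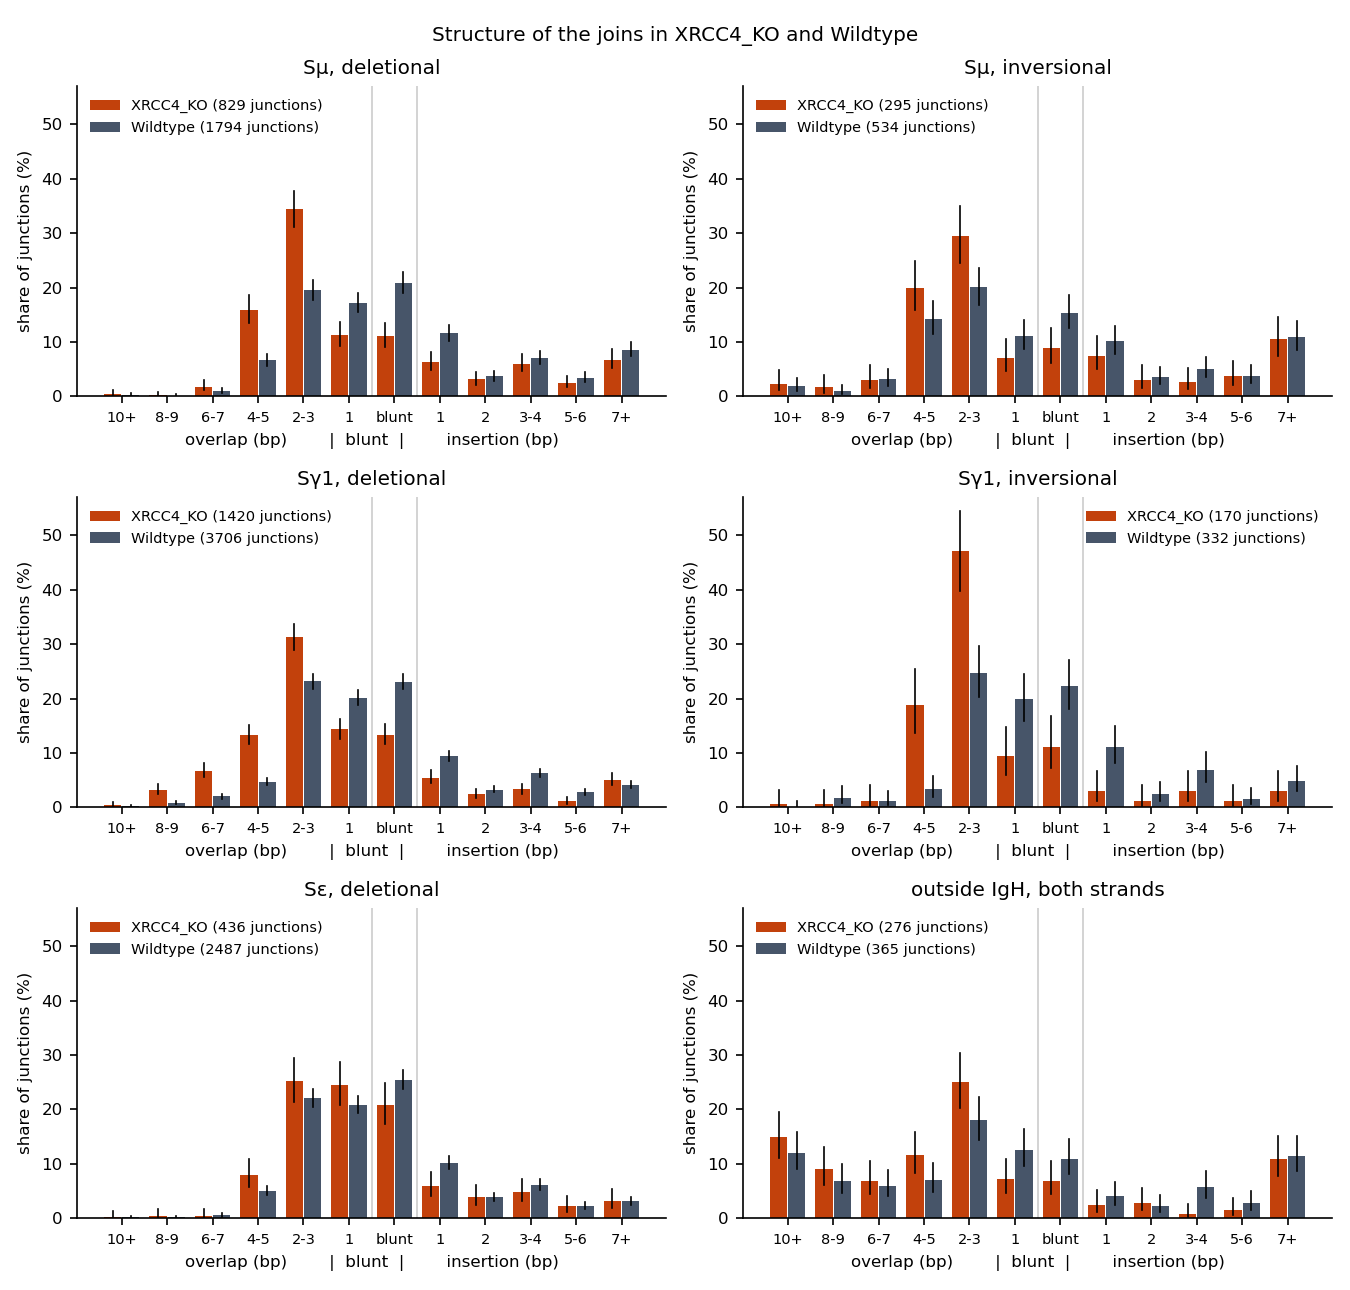
Share of junctions (y axis, %) by overlap length, blunt or insertion length (x axis, bp) for XRCC4_KO (orange) and Wildtype (slate) in 6 combinations of region and orientation, with 95% Wilson intervals as lines. In Sμ and Sγ1 the XRCC4_KO bars exceed those of Wildtype at overlaps of 2 to 3 and 4 to 5 bp and lie under them at 1 bp, at blunt joins and at insertions of 1 bp.

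The added microhomology was not spread evenly over lengths. In deletional Sγ1, overlaps of 1 bp were less frequent in XRCC4_KO and each class from 2 to 9 bp more frequent. There, joins with 1 bp of overlap made up 14.4% in XRCC4_KO and 20.2% in Wildtype (odds ratio 0.665, exact adjusted p = 5.57e-06). Overlaps of 2 to 3 bp made up 31.3% in XRCC4_KO and 23.2% in Wildtype (odds ratio 1.51, 1.31 to 1.73), and those of 4 to 5 bp 13.2% and 4.75% (odds ratio 3.06, 2.45 to 3.82, exact adjusted p = 3.94e-22). Still longer overlaps followed the same direction: 6 to 7 bp stood in 95 XRCC4_KO joins (6.69%) and in 75 Wildtype joins (2.02%), an odds ratio of 3.47, and 8 to 9 bp in 45 (3.17%) and 31 (0.836%), where the odds ratio was 3.88 (2.39 to 6.37) with an exact adjusted p of 4.39e-08. Overlaps of 10 to 14 bp, in 7 XRCC4_KO and 9 Wildtype joins, did not pass the test (odds ratio 2.03, 0.643 to 6.15).

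Inversional Sγ1 joins had 2 to 3 bp of overlap in 80 of 170 cases in XRCC4_KO (47.1%) and in 82 of 332 in Wildtype (24.7%, odds ratio 2.70). Overlaps of 4 to 5 bp stood in 32 XRCC4_KO joins (18.8%) and in 11 Wildtype joins (3.31%), the highest called odds ratio of the microhomology bins at 6.74 (3.20 to 15.3, exact adjusted p = 1.14e-07). The 1 bp class was at 9.41% in XRCC4_KO and 19.9% in Wildtype (odds ratio 0.419, exact adjusted p = 0.00613). From 6 bp on, however, only 4 of the 132 XRCC4_KO joins with microhomology remained (3.03%), against 10 of 169 in Wildtype (5.92%, odds ratio 0.498, 0.111 to 1.78), where deletional joins gave 147 of 983 (15.0%) and 115 of 1896 (6.07%, odds ratio 2.72). The strands of Sγ1 therefore gave ratios on either side of 1 at this length, and the test of that difference, added after the data were seen, did not pass (Woolf's chi-square test on the counts, adjusted p = 0.0701).

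Sμ deletional joins followed Sγ1 up to 5 bp. Their 1 bp class was at 11.3% in XRCC4_KO and 17.2% in Wildtype (odds ratio 0.615), the 2 to 3 bp class at 34.4% and 19.6% (odds ratio 2.15, 1.78 to 2.60, exact adjusted p = 1.62e-14), while 4 to 5 bp was at 15.9% and 6.63% (odds ratio 2.66, exact adjusted p = 3.70e-12). At 6 to 7 bp they held 15 XRCC4_KO and 17 Wildtype joins (1.81% and 0.948%), with no call. Inversional Sμ joins were higher at 2 to 3 bp, with 29.5% in XRCC4_KO and 20.0% in Wildtype (odds ratio 1.67, exact adjusted p = 0.00684), but not as a share of the joins with 1 to 15 bp (odds ratio 1.34, exact adjusted p = 0.326). Their 4 to 5 bp class was already frequent in Wildtype, at 14.2%, beside 20.0% in XRCC4_KO, and did not pass the test (exact adjusted p = 0.0796).

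In Sε the length spectrum differed from Wildtype in a single class, 4 to 5 bp, with 8.03% of deletional joins in XRCC4_KO and 4.99% in Wildtype (odds ratio 1.66, 1.09 to 2.48, exact adjusted p = 0.0373), a call that ended as a share of the joins with 1 to 15 bp (odds ratio 1.39, exact adjusted p = 0.283). The 1 bp class, lower in XRCC4_KO in Sγ1, deletional Sμ and the rest of IgH, was at 24.5% in XRCC4_KO and 20.8% in Wildtype in Sε (odds ratio 1.24, 0.964 to 1.58), without a call. Over all regions 15 of 36 length classes passed the test (41.7%), 11 higher (30.6%) and 4 lower (11.1%) in XRCC4_KO. As a share of the joins with 1 to 15 bp, the 2 to 3 bp class lost its call in deletional Sγ1 (odds ratio 0.997) and in inversional Sγ1 (odds ratio 1.63, exact adjusted p = 0.119).

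**Figure D2:**
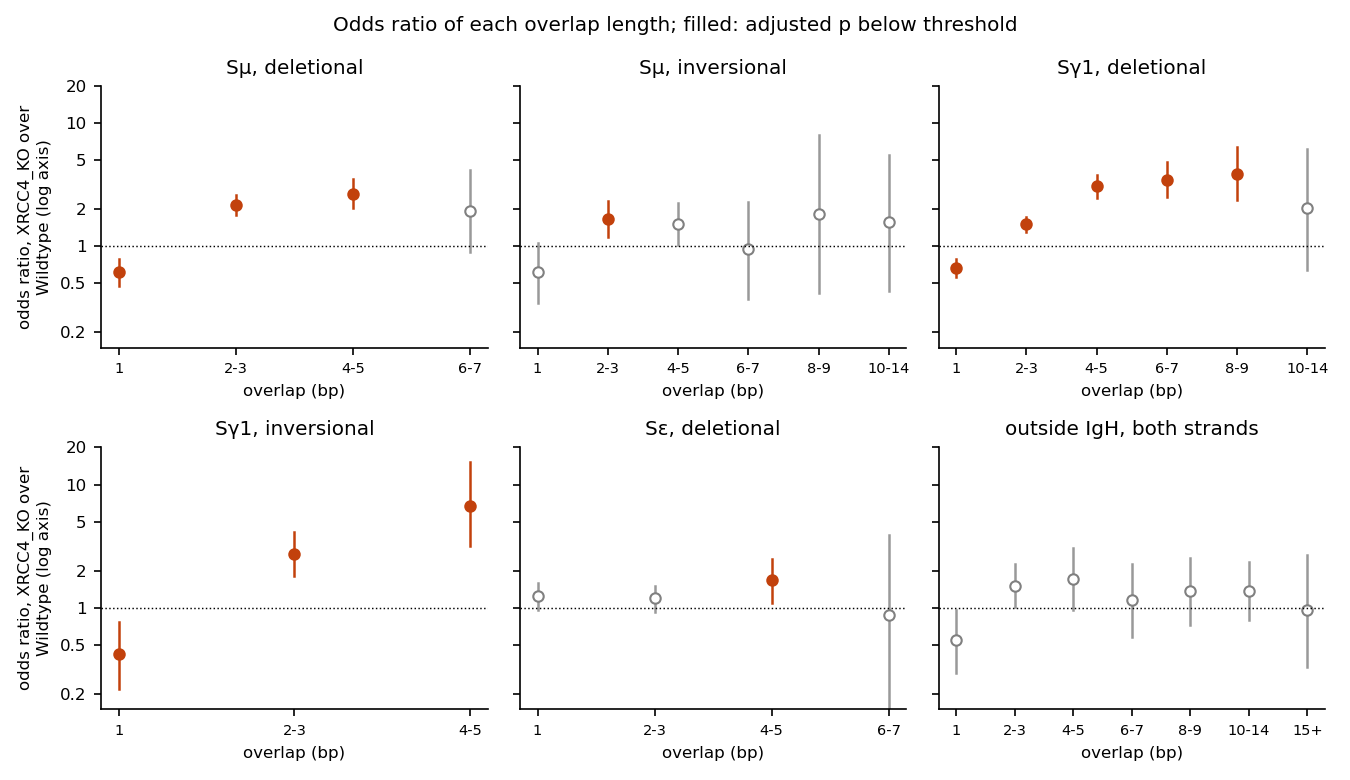
Odds ratio, XRCC4_KO over Wildtype (y axis, log scale), of each overlap length (x axis, bp) tested in 6 combinations of region and orientation, with exact 95% intervals as lines. Filled points passed the adjusted test. In deletional Sγ1 the ratio is 0.665 at 1 bp and 3.88 at 8 to 9 bp.

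No library of the same genotype was at hand to show how much such shares vary, but the CtIP_AA and CtIP_KO libraries were made the same way. All 15 called microhomology length classes and 16 of the 17 called join classes of XRCC4_KO lay outside the range of the other 3 libraries. The exception was the insertion share outside IgH, at 18.5% in XRCC4_KO with 27.7% in CtIP_AA, 12.7% in CtIP_KO and 26.3% in Wildtype. In deletional Sγ1 the 4 to 5 bp class was at 13.2% in XRCC4_KO, 4.42% in CtIP_AA, 5.89% in CtIP_KO and 4.75% in Wildtype. In deletional Sμ the 2 to 3 bp class was at 34.4% in XRCC4_KO, 19.3% in CtIP_AA, 21.8% in CtIP_KO and 19.6% in Wildtype. In inversional Sγ1 the 2 to 3 bp class was at 47.1% in XRCC4_KO, 17.0% in CtIP_AA, 22.7% in CtIP_KO and 24.7% in Wildtype. In each of these classes the other 3 libraries stood closer to each other than to XRCC4_KO. In Sε the gap was narrow: the 4 to 5 bp class was at 8.03% in XRCC4_KO, 5.19% in CtIP_AA, 5.33% in CtIP_KO and 4.99% in Wildtype. Some called classes were near ties with a CtIP library. Microhomology outside IgH was at 74.6% in XRCC4_KO, 55.5% in CtIP_AA, 73.4% in CtIP_KO and 62.7% in Wildtype. The 1 bp class in the rest of IgH was at 10.1% in XRCC4_KO, 10.4% in CtIP_AA, 20.0% in CtIP_KO and 34.6% in Wildtype. Among features called or not, 29 of 36 length classes and 21 of 24 join classes of XRCC4_KO lay outside that range.

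**Figure D3:**
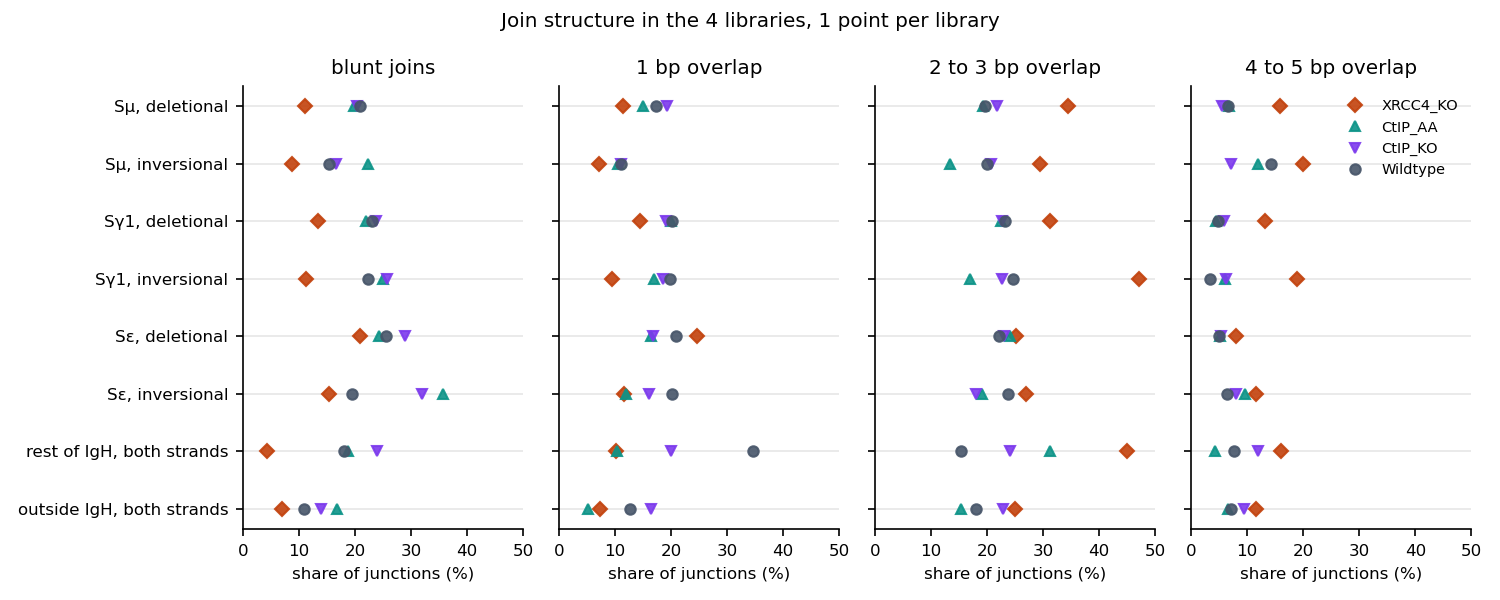
Share of junctions (x axis, %) that were blunt or had 1, 2 to 3 or 4 to 5 bp of overlap in each region and orientation (rows), with 1 point per library. XRCC4_KO (orange diamonds) lies below the other libraries in blunt joins in every row, and in Sγ1 and deletional Sμ it lies above them at 2 to 3 and at 4 to 5 bp.

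Among joins with 1 to 15 bp of overlap, the share with 4 or more bp measures length apart from the frequency of microhomology. In deletional Sγ1 joins it was 335 of 983 (34.1%) in XRCC4_KO and 291 of 1896 (15.3%) in Wildtype (odds ratio 2.85, exact adjusted p = 1.10e-28), and in inversional Sγ1 joins 27.3% and 12.4% (odds ratio 2.63, exact adjusted p = 0.00450). In deletional Sμ joins it was 28.6% in XRCC4_KO and 17.7% in Wildtype (odds ratio 1.86, exact adjusted p = 1.24e-05), a call that ended with 6 or more bp as the limit (odds ratio 1.33, exact adjusted p = 0.858). In deletional Sε joins it was 15.6% in XRCC4_KO and 12.0% in Wildtype, without a call (interval of the odds ratio 0.898 to 1.99, exact adjusted p = 0.244). Inversional Sμ joins were long in both libraries, at 42.2% in XRCC4_KO and 39.0% in Wildtype (odds ratio 1.15, 0.770 to 1.70). For the called combinations the share was also taken in CtIP_AA and CtIP_KO, of all joins with microhomology. In inversional Sγ1 it was 29.2% (14 of 48) and 18.4% (9 of 49), so XRCC4_KO lay within the range of the other libraries there. In deletional Sγ1 it was 14.9% and 18.0% and in deletional Sμ 18.5% and 13.5%, below XRCC4_KO. Of 20 tests of a difference between strands or between regions, 1 passed, that of long microhomology across the deletional joins of Sμ, Sγ1 and Sε (Woolf's chi-square statistic 15.3, adjusted p = 0.00931).

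For Sε the XRCC4_KO table gives each read, so overlap could be read base by base over its 462 joins. There were 110 joins with 1 bp of overlap, 73 with 2 bp, 44 with 3 bp, 27 with 4 bp and 11 with 5 bp, and the longest scored overlap was 10 bp. The overlaps of 3 or more bp, 89 joins, were most often GCTG (10 joins), then AGC, CTG and GGC (6 each), GCT (5) and AGCT (4). Some of these words recur in the sequences at hand: the 4 bp read printed above runs on as repeats of GAGCT and GGGCT, and the 100 bases of bait hold GCTG 3 times and AGCT 2 times. An overlap must match the bait, so words frequent in the bait are favoured by definition, and their frequency across Sε was not counted. Shares of such words in Wildtype Sε joins were not analysed here.

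Joins with added bases were less frequent in XRCC4_KO, most clearly those with a single base. Insertions of 1 bp stood in 5.49% of deletional Sγ1 joins in XRCC4_KO and 9.42% in Wildtype (odds ratio 0.559, exact adjusted p = 1.68e-04), and in 2.94% and 11.1% of inversional Sγ1 joins (odds ratio 0.242, exact adjusted p = 0.00926). In deletional Sμ they stood in 6.27% in XRCC4_KO and 11.6% in Wildtype (odds ratio 0.510), and in deletional Sε in 5.96% and 10.2% (odds ratio 0.558, exact adjusted p = 0.0337). Deletional Sγ1 joins also had fewer insertions of 3 to 4 bp in XRCC4_KO, 3.31% against 6.23% in Wildtype, and of 5 to 6 bp, 1.13% against 2.78%. Outside IgH, insertions of 3 to 4 bp stood in 2 of 276 XRCC4_KO junctions (0.725%) and in 21 of 365 Wildtype junctions (5.75%, odds ratio 0.120, exact adjusted p = 0.00419). They stood in 8 of 137 junctions in CtIP_AA (5.84%) and in 2 of 158 in CtIP_KO (1.27%), the latter close to XRCC4_KO. In all, 7 of 51 insertion classes passed the test (13.7%), all 7 lower in XRCC4_KO. As a share of joins with an insertion, 0 of the 51 classes, each tested within its region and orientation, passed the adjusted exact test.

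The orientation of the joins shifted little. Of Sγ1 joins with microhomology, 88.2% were deletional in XRCC4_KO and 91.8% in Wildtype (odds ratio 0.664, 0.519 to 0.851, exact adjusted p = 0.0114), while blunt Sγ1 joins were deletional in 90.9% and 92.0% (odds ratio 0.867, 0.503 to 1.56). Over all Sγ1 joins the deletional share was 89.3% in XRCC4_KO and 91.8% in Wildtype (exact adjusted p = 0.0254), a difference that was no longer called when repeated positions were dropped (odds ratio 0.848). The remaining 10 of 12 tests, over Sμ and Sε and the other join classes, did not pass.

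The prey ends of XRCC4_KO joins reached farther within the deposited listing windows of Sμ (chr12:114658100-114668100) and Sγ1 (chr12:114558500-114588500). These windows may be wider than the switch regions, whose limits in mm9, like those of nearby genes, were not at hand. Whether the tails lie in switch regions or in genes beside them was not determined. Each region's core spans the middle 95% of its Wildtype positions on the deletional strand, and by that definition about 2.5% of them lie past either end. The cores were chr12:114662304-114665763 for Sμ, chr12:114570383-114576297 for Sγ1 and chr12:114511918-114515051 for Sε, and downstream, toward the constant genes, is the lower coordinate. Downstream of the Sμ core lay 133 of 829 deletional XRCC4_KO junctions (16.0%) and 45 of 1794 Wildtype junctions (2.51%). Of those, 36 in XRCC4_KO (4.34%) and 4 in Wildtype (0.223%) lay 2000 to 4000 bp beyond it, where the position lists of Sμ end. Against the same core the share downstream was 2.27% in CtIP_AA and 2.75% in CtIP_KO, close to Wildtype. Of 12 tail tests, 7 passed (58.3%), 6 higher (50%) and 1 lower (8.33%) in XRCC4_KO. In the deletional tests the Wildtype share was fixed by the core, while the exact test takes it as sampled. Their p-values are therefore not exact for this comparison. A core from the CtIP libraries, which does not fix that share, is given below.

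On the plus strand of Sμ both ends were extended, with 15 of 295 XRCC4_KO junctions (5.08%) downstream of the core against 3 of 534 in Wildtype (0.562%, odds ratio 9.46, 2.64 to 51.4, exact adjusted p = 1.12e-04). Upstream of the core were likewise 15 XRCC4_KO junctions, against 7 in Wildtype (1.31%, odds ratio 4.03, exact adjusted p = 0.00478). With a core of the central 90% the downstream difference ended (odds ratio 1.24), and with a core of the central 99% the upstream difference did (exact adjusted p = 0.226). The median of inversional Sμ junctions was at 114663996 in XRCC4_KO, 114663578 in CtIP_AA, 114663628 in CtIP_KO and 114663359 in Wildtype, so XRCC4_KO lay farthest upstream. Upstream of the core on the deletional strand XRCC4_KO was lower, at 1.09% with 2.51% in Wildtype (odds ratio 0.427, exact adjusted p = 0.0297), a call that ended under each other definition of the core. This tail lies wholly upstream of the primer, whose bait begins at 114664909. A minus strand join there is not a simple deletion, so the word deletional names only the strand.

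In Sγ1 the deletional junctions extended at both ends. Downstream of the core lay 105 XRCC4_KO junctions (7.39%) and 93 Wildtype junctions (2.51%), and upstream 80 (5.63%) and 93 (2.51%, odds ratio 2.32, 1.69 to 3.18, exact adjusted p = 5.66e-07). Against the same core CtIP_AA had 1.45% downstream and 4.11% upstream, and CtIP_KO had 2.74% and 3.89%. Upstream, both CtIP libraries therefore lay between Wildtype and XRCC4_KO. More than 4000 bp beyond the core were 6 XRCC4_KO junctions at each end and 0 Wildtype junctions at either end, which in 3706 junctions allows a share of up to 0.0809% (a floor of 3 counts). The lowest deletional position was 114560538 in XRCC4_KO, 114568071 in CtIP_AA, 114566479 in CtIP_KO and 114566441 in Wildtype. The highest was 114582386 in XRCC4_KO, 114578870 in CtIP_AA, 114581358 in CtIP_KO and 114580280 in Wildtype. CtIP_KO thus also reached more than 4000 bp upstream of the core (5061 bp). Inversional Sγ1 junctions extended upstream, with 42 of 170 (24.7%) beyond the core in XRCC4_KO, against 17.0% in CtIP_AA, 12.4% in CtIP_KO and 41 of 332 (12.3%) in Wildtype (odds ratio 2.32, XRCC4_KO over Wildtype, exact adjusted p = 0.00140). From 2000 to 4000 bp upstream of the core were 7 such junctions in XRCC4_KO and 0 in Wildtype, and farther still 4 and 0. The farthest inversional junction lay 3048 bp upstream of the core in CtIP_AA (100 junctions) and 2925 bp in CtIP_KO (97 junctions).

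In Sε neither tail passed the test on the deletional strand, with 3.21% of XRCC4_KO and 2.49% of Wildtype junctions downstream of the core (odds ratio 1.30, 0.664 to 2.37) and 4.13% and 2.49% upstream (odds ratio 1.68, 0.928 to 2.92, exact adjusted p = 0.104). The intervals leave room for a moderate extension. More than 4000 bp downstream of the core lay 2 of 436 XRCC4_KO junctions and 0 of 2487 Wildtype junctions. Upstream of it on the plus strand were 4 of 26 XRCC4_KO junctions and 5 of 139 Wildtype junctions (odds ratio 4.80, exact adjusted p = 0.0532). That difference passed with the core taken from the CtIP libraries instead (odds ratio 8.07, exact adjusted p = 0.0213). Setting the core from those libraries, which were not compared, kept the 6 higher calls in Sμ and Sγ1 and ended the lower call upstream of deletional Sμ (odds ratio 0.759, exact adjusted p = 0.393). Downstream of it lay 16.4% of deletional Sμ junctions in XRCC4_KO and 2.62% in Wildtype (odds ratio 7.29), and in Sγ1 8.03% and 3.67% (odds ratio 2.29).

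**Figure D4:**
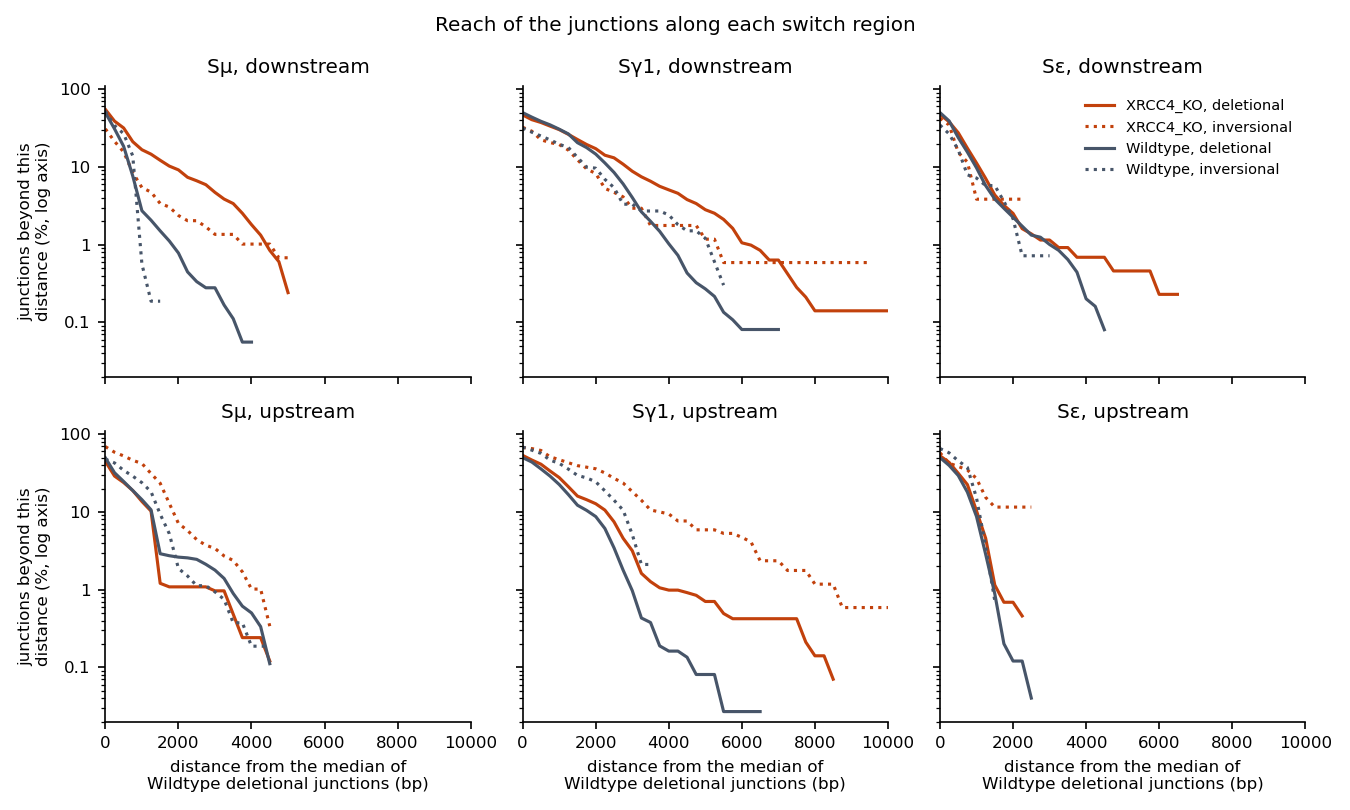
Share of junctions (y axis, %, log scale) lying farther than a given distance (x axis, bp) from the median of deletional Wildtype junctions, downstream (upper row) and upstream (lower row), for XRCC4_KO (orange) and Wildtype (slate), deletional (solid) and inversional (dotted). Downstream in Sμ and Sγ1 the solid XRCC4_KO lines fall more slowly than those of Wildtype, and in deletional Sε the lines run together over most of the range.

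Windows of 500 bp placed these differences. Of 70 windows with 10 or more junctions, 20 passed the test (28.6%), 14 higher (20%) and 6 lower (8.57%) in XRCC4_KO. Windows on the same strand of a region share a total, so higher shares in the tails lower those in the middle. On the deletional strand of Sμ all 7 windows from 114659000 to 114662499 were higher in XRCC4_KO. The window from 114659500 held 14 XRCC4_KO junctions (1.69%) and 1 Wildtype junction (0.0557%), where the odds ratio was 30.8 (4.67 to 1303) with an exact adjusted p of 2.28e-05. The window from 114661500 held 33 XRCC4_KO junctions (3.98%) and 12 Wildtype junctions (0.669%, odds ratio 6.15, exact adjusted p = 4.42e-07). In the middle of Sμ, the windows from 114663000 and 114663500 were lower, at 30.3% and 13.3% in XRCC4_KO against 35.5% and 18.2% in Wildtype.

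On the inversional strand of Sμ the window from 114662500 held 37 of 295 XRCC4_KO junctions (12.5%) and 158 of 534 Wildtype junctions (29.6%, odds ratio 0.342, exact adjusted p = 4.42e-07). The window from 114663000 was also lower, at 16.6% in XRCC4_KO and 24.2% in Wildtype. The window from 114665000, which begins just upstream of the primer, was higher, at 14.6% in XRCC4_KO and 5.43% in Wildtype (odds ratio 2.97, exact adjusted p = 1.52e-04).

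On the deletional strand of Sγ1 the 4 windows from 114567500 to 114569499 were higher in XRCC4_KO, with odds ratios from 3.00 to 23.6, as were those from 114576000 (5.49% in XRCC4_KO and 3.53% in Wildtype) and 114576500 (2.54% and 1.03%). The windows from 114571000 (3.66% in XRCC4_KO and 5.72% in Wildtype) and 114572000 (7.39% and 9.61%) were lower. No window passed in inversional Sγ1 (13 tested) or in Sε (11 deletional and 4 inversional tested). Blunt joins were scarcer in the downstream tail than in the core in XRCC4_KO, at 5.26% and 11.8% in deletional Sμ and 6.67% and 13.9% in deletional Sγ1, but neither difference passed the test (exact adjusted p = 0.107 each). In Wildtype the same shares were 17.8% and 21.0% in Sμ and 17.2% and 23.2% in Sγ1.

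Junctions in IgH outside the listing windows of Sμ, Sγ1 and Sε were placed by 4 intervals, chosen after the positions were seen. Between the windows of Sγ1 and Sμ lay 30 of the 69 XRCC4_KO junctions (43.5%) and 5 of the 78 Wildtype junctions (6.41%, odds ratio 11.0, 3.83 to 39.4, exact adjusted p = 5.50e-07). Of all junctions these were 0.852% in XRCC4_KO and 0.0530% in Wildtype (odds ratio 16.2). The reference annotation gave the order of the IgG3, IgD and IgM constant genes but not their limits in mm9. Which of these genes the interval holds was therefore not determined. In the 25 kb next to the lower edge of the Sμ window, chr12:114633100-114658099, were 22 XRCC4_KO junctions and 3 Wildtype junctions, of which 19 and 3 were deletional. This stretch adjoins the downstream end of the Sμ position list. Of the 22, 16 had microhomology, 2 were blunt and 4 had an insertion, 11 overlapped by 2 to 3 bp, and 19 of the reads began at the primer. Reads with 5 and 4 bp of overlap are given here, with prey at chr12:114657492-114657521 and chr12:114648691-114648719 on the minus strand and capitals on the overlap.
Below Sμ, 5 bp overlap: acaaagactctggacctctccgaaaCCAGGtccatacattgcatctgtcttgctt
Below Sμ, 4 bp overlap: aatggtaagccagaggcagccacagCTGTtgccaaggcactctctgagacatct

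Downstream of the Sε window lay 6 XRCC4_KO and 25 Wildtype junctions, a lower share of the rest of IgH (8.70% and 32.1%, odds ratio 0.204, exact adjusted p = 0.00105) but not of all junctions (0.170% and 0.265%, exact adjusted p = 0.420). Between Sε and Sγ1 were 21 XRCC4_KO and 32 Wildtype junctions, and upstream of Sμ 12 and 16, without a call. Counting each position once left 28 distinct XRCC4_KO and 5 distinct Wildtype positions between Sγ1 and Sμ. Join structure in the rest of IgH differed in the same direction as in the switch regions: microhomology stood in 54 of 69 (78.3%) in XRCC4_KO and 48 of 78 (61.5%) in Wildtype (exact adjusted p = 0.0457), and blunt joins were 3 (4.35%) and 14 (17.9%, interval of the odds ratio 0.0369 to 0.802, exact adjusted p = 0.0180). Overlaps of 2 to 3 bp stood in 31 XRCC4_KO joins (44.9%) and 12 Wildtype joins (15.4%, odds ratio 4.44, exact adjusted p = 3.74e-04), and overlaps of 1 bp in 7 (10.1%) and 27 (34.6%, odds ratio 0.215, exact adjusted p = 0.00125). The 1 bp share was 10.4% of 48 joins in CtIP_AA, close to XRCC4_KO, and 20.0% of 25 in CtIP_KO.

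**Figure D5:**
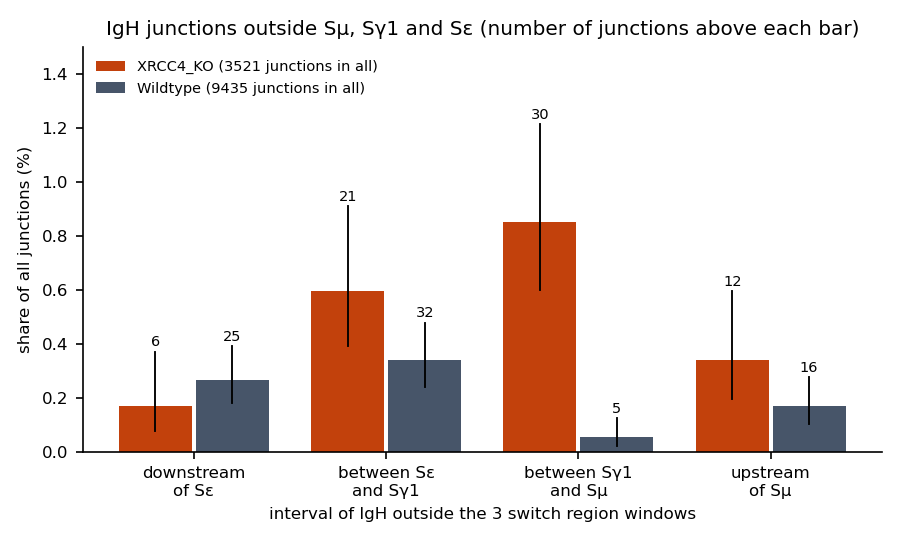
Share of all junctions (y axis, %) in 4 intervals of IgH outside the 3 switch region windows (x axis), with 95% Wilson intervals as lines and the number of junctions above each bar, for XRCC4_KO (orange) and Wildtype (slate). Between Sγ1 and Sμ stand 30 XRCC4_KO and 5 Wildtype junctions, and in the other intervals the intervals of the libraries overlap.

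The blunt joins that remained in XRCC4_KO were described by how much bait they kept. The bait ran a median of 61 bp from the primer's first base in 428 XRCC4_KO blunt joins (quartiles 45 and 77.3 bp) and 64 bp in 2041 Wildtype blunt joins (50 and 80 bp). Joins with up to 50 bp of bait, the lower Wildtype quartile, made up 32.9% in XRCC4_KO and 25.1% in Wildtype (odds ratio 1.47, exact adjusted p = 0.00389), a call that ended with each pair of bait and prey ends counted once (odds ratio 1.25). The most frequent bait end was 114664865 in XRCC4_KO (19 joins) and 114664846 in Wildtype (100 joins), each under 5% of its library's joins. Prey ends of blunt joins lay in Sε in 21.6% in XRCC4_KO and 31.6% in Wildtype (odds ratio 0.598, exact adjusted p = 1.89e-04), where junctions of every structure did in 13.1% and 27.8% (odds ratio 0.392). The word AGCT, a preferred target of AID that reads the same on both strands, was looked for at these prey ends after the data were seen. It spanned the prey end in 9 of 209 Sγ1 joins (4.31%) in XRCC4_KO and 89 of 923 (9.64%) in Wildtype (exact adjusted p = 0.0569), and in Sε in 15.8% and 16.1%.

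Outside IgH, microhomology was more frequent in XRCC4_KO, and long overlaps were common in both libraries. In the deposited counts 206 of 276 XRCC4_KO junctions had microhomology (74.6%), against 229 of 365 in Wildtype (62.7%, odds ratio 1.75, 1.22 to 2.51, exact adjusted p = 0.00340). The share was 55.5% in CtIP_AA and 73.4% in CtIP_KO, the latter close to XRCC4_KO. No single overlap length passed among 7 tested. Of listed junctions, 268 in XRCC4_KO and 329 in Wildtype, those of the other chromosomes had microhomology in 80.4% and 66.9% (odds ratio 2.02, 1.29 to 3.20, exact adjusted p = 0.00926), and those of chromosome 12 in 62.7% and 52.0% (odds ratio 1.55, 0.733 to 3.31). The median overlap was 4 bp in both libraries and the longest 22 bp in XRCC4_KO and 20 bp in Wildtype. Overlaps of 8 to 11 bp stood in 14.9% of listed XRCC4_KO and 12.5% of listed Wildtype junctions. At 8 to 9 bp alone the deposited counts gave 9.06% and 6.85%, where deletional Sγ1 joins had 3.17% and 0.836%. Among 25 tests on the listed junctions, by chromosome, strand and structure, 1 passed (4%), the microhomology share, at 76.5% in XRCC4_KO and 63.5% in Wildtype (odds ratio 1.87, exact adjusted p = 0.0171). It lost its call when repeats of a prey position were dropped, at an odds ratio of 1.78 (exact adjusted p = 0.0559) and with reads that begin at the primer (odds ratio 1.93, exact adjusted p = 0.0720). These junctions carried leading bases in 8.21% of XRCC4_KO and 36.2% of Wildtype reads.

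The 1 Mb bin with the most distinct XRCC4_KO junctions was chromosome 7 from 132 Mb, with 10 of 262, all 10 with microhomology, and 13 of 305 in Wildtype. On chromosome 12 the bins from 115 and 70 Mb held 7 and 6 in XRCC4_KO, against 9 and 10 in Wildtype. The class outside IgH was used as deposited, and the limits of IgH behind it were not determined here. The bin from 115 Mb adjoins the one with the switch region windows, so its junctions may lie in or beside IgH. The bins of chromosome 5 and chromosome 6 from 114 Mb held 3 XRCC4_KO junctions each, all with microhomology, and 0 of 305 in Wildtype, which allows a share of up to 0.984%. The remaining bins with 3 or more held 3 or 4 in XRCC4_KO, against 2 to 8 in Wildtype. An XRCC4_KO read with 15 bp of overlap, to chr5:112669188-112669227 on the plus strand, and a read with 6 bp, to chr7:132744839-132744869 on the minus strand in the bin named first, show the form of these joins, with capitals on the overlap.
Outside IgH, 15 bp overlap: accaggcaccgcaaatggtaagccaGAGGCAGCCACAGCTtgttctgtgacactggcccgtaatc
Outside IgH, 6 bp overlap: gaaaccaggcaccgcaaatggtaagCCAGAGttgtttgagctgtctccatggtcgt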

How the data were processed

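Joins were read by linear amplification from a biotinylated Sμ primer, nested PCR and MiSeq sequencing, with AflII to remove unrearranged sequence, per the labels' protocols. Bowtie2 and mm9 are named in the submitters' processing notes. The calling, filtering and deduplication of joins are not described in the labels or file headers. The deposited summaries give a count of junctions per region, strand and bin of overlap or insertion, and these counts were used as deposited. The deposited position lists and join tables give mm9 positions and reads, and emptied lines (8 in XRCC4_KO and 36 in Wildtype outside IgH) were left out where a position was needed. Groups follow the sample titles, with 3521 and 9435 junctions, which set the precision given by the intervals.

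Shares have 95% Wilson intervals. Odds ratios are conditional, with exact 95% intervals and two-sided Fisher's exact tests, adjusted by Benjamini-Hochberg within each kind of result at a threshold of 0.05, over classes and windows with 10 or more junctions in both libraries together. Differences between strands or regions were tested with Woolf's test, adjusted over 20 tests. Named were the length classes past the threshold, up to 10 windows per region past it, and up to 10 bins of 1 Mb outside IgH with the most distinct XRCC4_KO junctions, at least 3. Members, lists and tests were chosen with earlier results of these data known. The intervals of the rest of IgH, the word AGCT and the alternatives on reads that begin at the primer were chosen after the data were seen. The annotation at hand is of GRCm38.p6 and gave only names and order of constant genes. The tests were tried on simulated counts. Python 3.11.15, numpy 2.4.6, scipy 1.17.1 and matplotlib 3.10.9 were used.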

Additional observations from a re-analysis of the deposited data

Results flagged for a closer look

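The odds ratio of long microhomology (at least 4 bp, in joins whose overlap is 1 to 15 bp) differed between the regions on the deletional strand, by a test of that difference (Woolf's chi-square statistic 15.3, adjusted p = 0.00931). The sample odds ratios, XRCC4_KO over Wildtype, were 1.86 in Sμ, 2.85 in Sγ1 and 1.36 in Sε. With 6 or more bp as long, the chi-square statistic was 6.86 and no longer passed (adjusted p = 0.108).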

How the results depend on the processing

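No paired analysis was possible because each genotype is 1 library and the labels give no replicate numbers. Of 268 recomputed values, 211 kept their direction and side of the threshold, 23 no longer passed it, 14 newly did, 10 reversed and 10 were counts that moved by over 1.5 times. Counting each prey position once, the number of regions called was 3 of 3 (5 of 5 over all junctions), of orientation tests 0 of 3 (2 of 12) and of tests outside IgH 0 of 24 (1 of 25), with the odds ratio of microhomology there at 1.78. With reads that begin at the primer 0 of 23 tests outside IgH passed, at an odds ratio of 1.93. Insertion lengths gave 0 calls as a share of inserted joins, against 7 of all joins. Long microhomology, called in 3 of 8 combinations, was called in 6 as a share of all junctions, in 6 from 2 bp on (with 2.19 in inversional Sμ) and in 1 from 6 bp on, where the odds ratio was 0.498 in inversional Sγ1, 1.33 in deletional Sμ and 0.966 in inversional Sμ, and 0 of 20 tests between strands or regions passed. A limit of 3 bp was not run, since the deposited classes join 2 and 3 bp. As a share of joins with 1 to 15 bp, length classes gave 13 calls, against 15 of all joins. Windows of 1000 bp gave 13 calls of 41, against 20 of 70. Other odds ratios that changed side of 1 were 1.11 for blunt inversional Sε joins with reads that begin at the primer, 0.997 for 2 to 3 bp in deletional Sγ1 as a share of overlaps, 1.29 for the deletional share of Sε and 0.859 for the downstream tail of deletional Sε with each position once, 0.656 for that of inversional Sε with a 90% core, 1.00 for bait lengths from the lower quartile to the median with each pair once, and 0.982 for the minus strand and 1.01 for chromosome 12 outside IgH with reads that begin at the primer. The causes of these changes were not tested. The number of tails called was 5 to 7 of 12 over all definitions of the core, with the downstream tail of inversional Sμ at 1.24 with a 90% core, and the excess between Sγ1 and Sμ was called under all 3 alternatives run on it, with odds ratios from 10.1 to 14.3. Depth limits inversional Sε, with 26 junctions in XRCC4_KO.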

Other observations

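Among IgH junctions outside the windows of Sμ, Sγ1 and Sε, the position with the most junctions lay upstream of Sμ in XRCC4_KO, with 4 junctions, and between Sε and Sγ1 in Wildtype, with 7. Junctions upstream of Sμ were mostly on the plus strand, 10 of 12 in XRCC4_KO and 10 of 16 in Wildtype, and 11 of the 12 in XRCC4_KO had microhomology, against 8 of 16 in Wildtype. These counts were not tested.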
